A study of Drosophila melanogaster with 120 samples.

Results

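Heads were compared with abdomens in old fruit flies, Drosophila melanogaster females 50 days of age. The comparison held 23 of the 120 arrays of the study, 11 of heads and 12 of abdomens. Each array measured 16637 transcripts with a single dye, Cy3, and the values are log2 intensities, on which a difference of 1 is a doubling. The flies came from 3 control and 3 selection populations that descended from wild-caught females, and every population gave 2 biological replicates per tissue and age. Parents of the control populations were mated at 14 days of age. In the selection populations mating was put off to 28 and later to 40 days, which selected for reproduction late in life. After 35 generations, unmated daughters of both regimes were aged at 25 °C with 12 hours of light and dissected into the 2 tissues, so none of the females measured here had mated. The members were chosen by tissue and age, except that 1 array was left out for its profile. The replicates of a population were averaged, which gave 6 heads and 6 abdomens paired by population. The array left out was head control population 2 replicate 1, so that population had 1 head array. Its profile had a median correlation of 0.954 with the day-1 heads and of 0.922 with the other day-50 heads.

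A fly head consists largely of compound eyes and brain, with sensory organs, muscle and a layer of head fat body. The abdomen of a female holds the ovaries, most of the gut, the Malpighian tubules that act as kidneys, and the main abdominal fat body, which makes yolk proteins and stores lipid. Ovaries carry mitotically dividing and endoreplicating cells and load eggs with RNA, whereas adult heads hold mostly postmitotic neurons and photoreceptors. In pieces of tissue such as these, fewer cells of a type and less RNA per cell cannot be told apart.

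The array identifies a transcript by its FlyBase number, and RefSeq tied 44 of the 16637 numbers to gene symbols, 16 of them to 1 gene and 28 to 2 or more genes. The other 16593 are given by number and without a function. None of the 45 marker genes listed for head, ovary, gut, fat body, muscle and male tissue was among the tied genes, so the tissue labels were not checked against markers. Array medians lay between 9.66 and 9.96 in heads and between 10.16 and 10.45 in abdomens, and upper quartiles lay between 11.63 and 11.72 in heads and between 12.29 and 12.40 in abdomens. Neither range overlapped between the tissues. Replicates of a population correlated with a median of 0.985 in 5 head pairs and 0.987 in 6 abdomen pairs. The abdomen of control population 3 replicate 1 correlated least with its group, at 0.950. Nothing in the labels says whether biological replicates came from separate cages, and the tests use the spread between populations.

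Head and abdomen of old females differed by at least 2-fold in 6008 transcripts, 36.1% of those tested (limma, paired by population, adjusted p under 0.05). Of these, 1958 were higher in the head, 11.8% of all transcripts, and 4050 were lower, 24.3%. The differences ran from 7.30 to -7.45 on the log2 scale, and 5993 of the 6008 had the same direction in all 6 populations. At least 4-fold differences numbered 759 higher and 1349 lower in the head, at least 16-fold differences 134 and 350, and at least 64-fold differences 19 and 49. Without a minimum of 2-fold, 13269 transcripts passed the adjusted p. Just under 2-fold, between 0.9 and 1 on the log2 scale, lay 607 transcripts that passed the adjusted p, and 600 lay between 1 and 1.1.

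The split between the directions depended on how the arrays were scaled. After quantile normalization over the 23 arrays, which gives every array the same distribution, 5010 transcripts were called, 30.1%, of which 2622 were higher and 2388 lower in the head. The share that was higher in the head was 32.6% as deposited and 52.3% after quantile normalization. Centring every array on its median gave 2871 higher and 2440 lower. The median difference over all transcripts was -0.25 as deposited, -0.036 after quantile normalization and 0.20 after median centring. All 1958 transcripts that were higher in the head as deposited were also called higher after quantile normalization. Of the 4050 lower ones, 2388 were called under both scalings and 1662 only as deposited, and 664 were called higher only after quantile normalization. None was called in opposite directions.

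Ranks within an array do not depend on either scaling. Of all transcripts, 25 (0.15%) lay in the top 25% of every head array and in the bottom 25% of every abdomen array, and 43 (0.258%) did the opposite. In contrast, 1821 lay in the top 25% and 1297 in the bottom 25% of all 23 arrays. On the deposited levels, which do depend on the scaling, no head array overlapped any abdomen array for 6424 transcripts, 38.6%, with 1988 above and 4436 below the abdomens.

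The transcript furthest above the abdomen was FBtr0083857, which read 15.38 to 15.60 on the 11 head arrays with a median of 15.46. On the 12 abdomen arrays it read 7.94 to 8.39 with a median of 8.15. Its head minus abdomen difference was 7.30 ± 0.0974 (SD, n = 6), a 158-fold difference, with an adjusted p of 6.18e-14 from limma. The lower quartile of abdomen arrays lay between 8.23 and 8.38, and the highest reading of any head array was 15.71.

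The 11 further transcripts with the largest excess in the head differed by 6.30 to 6.85. FBtr0081030 read 14.80 to 15.26 in heads and 7.89 to 8.25 in abdomens, a difference of 6.85. FBtr0076599 read 15.05 to 15.44 in heads and 8.14 to 8.84 in abdomens, a difference of 6.76. Then came FBtr0082548 (6.55), FBtr0079437 (6.46), FBtr0074949 (6.44), FBtr0076421 (6.43), FBtr0078825 (6.42), FBtr0075338 (6.41), FBtr0071909 (6.41), FBtr0087047 (6.32) and FBtr0080474 (6.30). On none of the 12 did a head array overlap an abdomen array, which largely follows from picking the largest differences. Over all transcripts, 11.9% had every head array above every abdomen array. The left-out head array resembled the other heads on 10 of the 12 but read 8.07 for FBtr0080474 and 9.82 for FBtr0076421.

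In the other direction, FBtr0077040 read 7.82 to 8.05 on head arrays with a median of 7.98. It read 15.24 to 15.64 on abdomen arrays with a median of 15.33. The difference was -7.45 ± 0.171 (SD, n = 6), 175-fold in favour of the abdomen, with an adjusted p of 6.18e-14 from limma. FBtr0077041 (-7.40), FBtr0070749 (-7.37), FBtr0088161 (-7.36), FBtr0079701 (-7.31), FBtr0072634 (-7.26), FBtr0080550 (-7.21), FBtr0086808 (-7.10) and FBtr0087854 (-7.05) followed. FBtr0072630 (-6.86), FBtr0076591 (-6.83) and FBtr0088122 (-6.82) completed the 12. Head arrays stayed at 8.59 or below for these transcripts and abdomen arrays at 14.23 or above. Quantile normalization moved none of the 24 leading differences by more than 0.205.

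**Figure D1:**
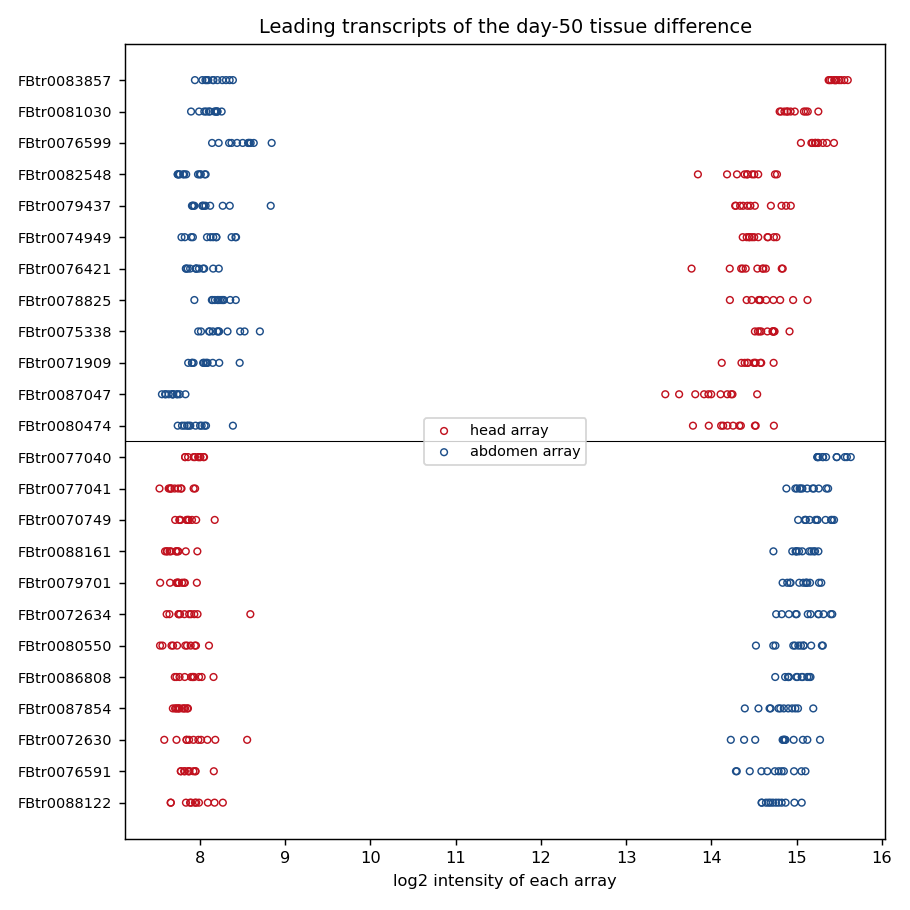
Log2 intensity of each of 11 head arrays (red) and 12 abdomen arrays (blue) for the 12 transcripts furthest above (upper rows) and the 12 furthest below (lower rows) the abdomen. The rows were picked for the size of the difference. The arrays of the 2 tissues form separate groups in every row, from 13.46 to 15.64 on the high side and from 7.52 to 8.84 on the low side.

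Other called transcripts varied widely between populations, and for these the mean says less. FBtr0081781 had a difference of 2.30 ± 2.16 (SD, n = 6; adjusted p = 0.00273, limma), with a head level of 8.02 in control population 1 and 13.84 in selection population 3. In control population 1 the head was below the abdomen, whose level was 9.22. The replicates of selection population 1 read 8.59 and 12.85 in the head, so the spread was also within a population.

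FBtr0078656 had a difference of 2.46 ± 2.10 (SD, n = 6; adjusted p = 0.00139, limma). Its heads were at 8.53 in control population 1, 8.28 in control population 2 and 12.19 in control population 3. In selection populations 1, 2 and 3 they were at 9.94, 12.36 and 13.50. The same 2 transcripts therefore had their lowest heads in control populations 1 and 2 and selection population 1. Abdomens stayed between 8.10 and 9.10.

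On the abdomen side, FBtr0076573 was at 7.79 to 8.24 in the heads of all 6 populations and at 10.75 to 14.68 in the abdomens. The difference was -5.33 ± 1.57 (SD, n = 6; adjusted p = 1.13e-07, limma). Selection population 2 had the lowest abdomen, with arrays at 9.19 and 12.31. FBtr0073353 varied instead in the head, from 9.48 in control population 3 to 13.21 in control population 1, with abdomens at 13.51 to 13.76. Its difference was -1.90 ± 1.51 (SD, n = 6; adjusted p = 0.00082, limma). Over all transcripts the median SD of the difference between populations was 0.248, and it was 0.306 among those called higher and 0.299 among those called lower.

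The populations gave similar totals when each was taken alone. Between 1874 (selection population 1) and 2158 (control population 2) transcripts were at least 2-fold higher in the head, and between 3828 (control population 3) and 4629 (control population 1) were at least 2-fold lower. The share of the 6008 called transcripts that reached 2-fold in a single population ran from 84.2% in control population 3 to 93.3% in control population 1.

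Among the 16 transcripts tied to 1 gene, 8 were called and all 8 were lower in the head, against backgrounds of 36.1% called and 24.3% called lower over all transcripts. Their median difference was -0.94, compared with -0.25 over all transcripts. The scaling mattered here, since after quantile normalization 4 of the 16 were called, 2 lower and 2 higher in the head, against 30.1% of all transcripts under that scaling. The median was then -0.33 against -0.036. On 6 of the 16, 37.5%, no head array overlapped an abdomen array, against 38.6% of all transcripts.

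Of the genes with a role in the nucleolus and in protein turnover, sle, which encodes a nucleolar protein, had the largest difference of the 16. It read 10.08 to 11.64 on head arrays with a median of 11.40 and 12.93 to 14.18 on abdomen arrays with a median of 13.73. The arrays did not overlap. The head was lower by 2.45 on average, 5.45-fold, with a difference of -2.45 ± 0.585 (SD, n = 6; adjusted p = 3.57e-08, limma), and -1.91 after quantile normalization. Control population 1 had the largest gap, -3.34, and control population 3 the smallest, -1.87.

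The transcript of rdx, the BTB adaptor that brings substrates such as Cubitus interruptus to the Cullin-3 ubiquitin ligase, was also lower in the head under both scalings. Head arrays read 12.52 to 13.22 with a median of 12.94, and abdomen arrays 14.34 to 15.05 with a median of 14.84. The difference was -1.93 ± 0.204 (SD, n = 6; adjusted p = 2.91e-10, limma), or -1.62 after quantile normalization. Uba1, the ubiquitin-activating enzyme that starts ubiquitin conjugation, had a difference of -1.06 ± 0.262 (adjusted p = 4.37e-07, limma), with heads at 12.36 to 13.19 and abdomens at 13.07 to 14.18. It fell short of 2-fold after quantile normalization, at -0.66, and at -0.99 without control population 1.

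Wdr24 and mio encode subunits of GATOR2, a complex that relieves inhibition of the growth kinase TORC1. Wdr24 read 9.64 to 10.56 in heads and 11.15 to 11.95 in abdomens, a difference of -1.29 ± 0.258 (SD, n = 6; adjusted p = 7.21e-07, limma). For mio, heads were at 8.75 to 9.59 and abdomens at 9.88 to 10.84, with a difference of -1.07 ± 0.247 (SD, n = 6; adjusted p = 5.85e-06, limma). Neither gene's arrays overlapped between the tissues. After quantile normalization the differences were -0.69 and -0.77, below 2-fold, with adjusted p of 0.000296 and 0.000125 from limma.

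The chromatin and histone list was the 1 list of 20 with at least 3 tied members, and it had 4 of its 20 genes on tied transcripts. Of these 4, 2 were called lower in the head as deposited, where 24.3% of all transcripts were called lower. None of the 4 was called after quantile normalization, where 30.1% of all transcripts were called. SuUR, which holds back replication of heterochromatin in polytene cells, had a difference of -1.10 ± 0.409 (SD, n = 6; adjusted p = 8.64e-06, limma), with heads at 11.02 to 11.87 and abdomens at 11.86 to 13.08. For kis, a CHD-family chromatin remodeller, the difference was -1.07 ± 0.594 (SD, n = 6; adjusted p = 0.000125, limma), spread from -2.11 in control population 1 to -0.34 in control population 3. Without control population 1 both stayed short of 2-fold, with SuUR at -0.999 and kis at -0.86.

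HDAC3, a histone deacetylase, was lower in the head by less than 2-fold, at -0.83 ± 0.145 (SD, n = 6; adjusted p = 1.77e-06, limma). After quantile normalization it was at -0.26 (adjusted p = 0.0158, limma) and after median centring at -0.38. Its head arrays as deposited, 11.73 to 12.33, lay wholly below its abdomen arrays, 12.73 to 13.15. His4r, the histone H4 gene expressed outside S phase, read 14.56 to 14.85 in heads and 14.50 to 14.95 in abdomens, with a difference of -0.01 ± 0.114 (adjusted p = 0.896, limma). Relative to the shift of all transcripts its sign turned, to 0.16 after quantile normalization and 0.44 after median centring.

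LanA, a laminin subunit of basement membranes, had a difference of -0.72 ± 0.395 (SD, n = 6; adjusted p = 0.000311, limma), which was -0.06 after quantile normalization (adjusted p = 0.69, limma). alpha-Spec, the alpha subunit of the spectrin membrane skeleton, was at 10.50 to 11.22 in heads and 9.95 to 10.73 in abdomens, a difference of 0.52 ± 0.290 (SD, n = 6; adjusted p = 0.00275, limma). Fatp1, a fatty acid transport protein, was at 12.39 to 13.13 in heads and 11.18 to 12.78 in abdomens, a difference of 0.65 ± 0.283 (SD, n = 6; adjusted p = 0.00012, limma). Those 2 reached 2-fold after quantile normalization, at 1.11 and 1.22, and Fatp1 also after median centring. NaPi-III, a phosphate transporter, was at -0.24 as deposited and 0.23 after quantile normalization.

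Of the rest, fend had a difference of -1.19 ± 0.419 (SD, n = 6; adjusted p = 7.3e-06, limma), with heads at 10.18 to 11.40 and abdomens at 11.45 to 12.57. After quantile normalization it was -0.52. CG31178 was at -0.24 with 8.09 or less on every array, where the lowest reading of any abdomen array was 7.03, and CG16974 was at -0.06.

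A further 28 transcripts carry 2 or more genes under 1 number, so that a value belongs to the whole transcript and not to either gene. They fall outside the naming rule, and those named were chosen by their RefSeq names and values. As deposited 12 of the 28, 42.9%, were called, 3 higher and 9 lower in the head, against the background of 36.1%. Their median difference was -0.82, against -0.25 over all transcripts. After quantile normalization 6 were called, 3 in each direction, against a background of 30.1% called. On 16 of the 28, 57.1%, the arrays of the tissues did not overlap as deposited, against 38.6% of all transcripts.

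The lowest in the head was the transcript shared by Mvk, the mevalonate kinase of isoprenoid synthesis, and CG33672. It read 9.74 to 10.56 on head arrays and 12.05 to 12.64 on abdomen arrays, a difference of -2.29 ± 0.259 (SD, n = 6; adjusted p = 2.16e-09, limma). Rad1, a subunit of the 9-1-1 DNA damage clamp, shares a transcript with Sws1 that had a difference of -1.86 ± 0.134 (SD, n = 6; adjusted p = 5.58e-09, limma), with heads at 9.72 to 10.63 and abdomens at 11.46 to 12.20. The transcript of lmgB and lmgA, of which lmgA encodes a subunit of the anaphase-promoting complex, differed by -1.43 ± 0.246 (SD, n = 6; adjusted p = 2.53e-07, limma). These 3 were called after quantile normalization too, at -1.72, -1.27 and -1.21, but after median centring lmgB with lmgA was at -0.98, under 2-fold.

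Another 6 of the 28 were called lower as deposited, and none of the 6 after quantile normalization. The transcript of vnc, an N-terminal acetyltransferase, and CG42455 was at -1.41. That of Mettl5, a methyltransferase of ribosomal RNA, and CG42374 was at -1.39. The transcript of Polr3K, a subunit of RNA polymerase III, and Tcs1 was at -1.30. That of Pbp49, which binds promoters of small nuclear RNA genes, and CG42516 was at -1.30, and that of the RNase P gene Rpp14a and CG7950 was at -1.06. CG6191 and CG45088 were at -1.05. Without control population 3 the last 2 fell short of 2-fold, at -0.999 and -0.98, and CG6191 with CG45088 was at -0.99 without control population 2. Under that scaling these 6 lay between -0.38 and -0.96. Tcs1 with Polr3K varied most of the 28 between populations, with an SD of 0.615, and was at -0.70, under 2-fold, with biological replicate 1 alone. Tgs1, which trimethylates the cap of small nuclear RNAs, with the telomere gene moi was just outside 2-fold at -0.98, and at -1.06 without control population 2.

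Higher in the head under both scalings were CG17325 with CG42305, CG32573 with CG42512, and CG10570 with CG42502. CG17325 with CG42305 read 13.61 to 14.29 in heads and 11.60 to 12.73 in abdomens, a difference of 1.91 ± 0.195 (SD, n = 6; adjusted p = 5.98e-10, limma). CG32573 with CG42512 was at 1.43 ± 0.177 and CG10570 with CG42502 at 1.01 ± 0.253. The last was at 0.92 without control population 1 and at 0.98 without control population 2. The transcript of ND-MNLL, a subunit of respiratory complex I, and CG45089 was at 0.04 (adjusted p = 0.665, limma) and at 0.33 after quantile normalization. That of the mitochondrial import chaperone Tim10 and CG42497 was at -0.46 as deposited, lower in the head in 6 of 6 populations (adjusted p = 3.09e-05, limma). This transcript was at -0.24 after quantile normalization and at -0.008 after median centring. The glycosylation gene Dpm2 with CG12016 was at 0.08. Of GPI anchor synthesis, PIG-M with CG42379, CG42380 and CG42381 was at -0.85, and PIG-P with Tcs6 at -0.91. After quantile normalization the PIG-M transcript was at -0.23 and the PIG-P transcript at -0.48.

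**Figure D2:**
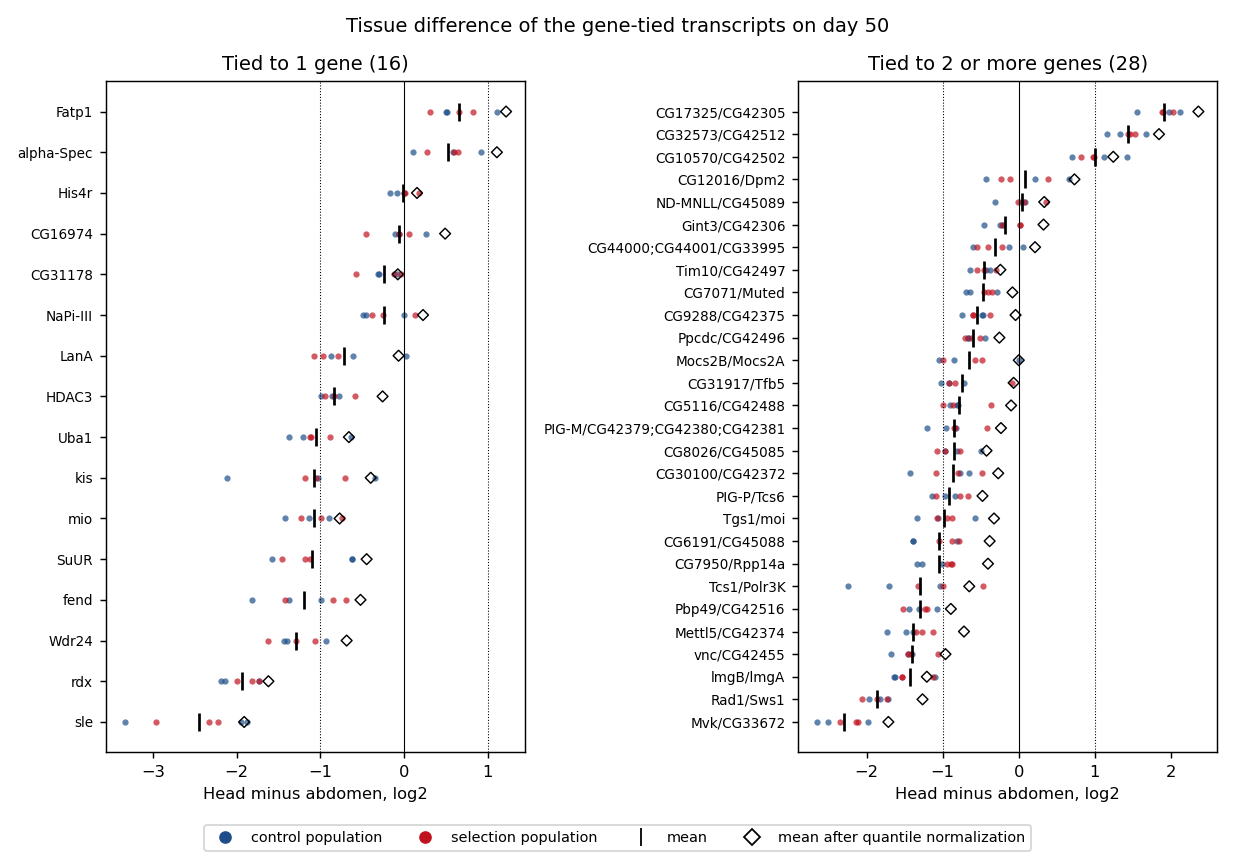
Head minus abdomen difference on day 50 (log2) of each control (blue) and selection (red) population for the 16 transcripts tied to 1 gene and the 28 tied to 2 or more. The black bar is the mean as deposited, the diamond the mean after quantile normalization, and dotted lines mark 2-fold. Diamonds lie to the right of the bars. Those of sle, rdx, Mvk with CG33672, Rad1 with Sws1, and lmgB with lmgA are still below -1.

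The tissue difference was next compared between regimes, 3 selection against 3 control populations. limma called 0 of 16637 transcripts, 0% (smallest adjusted p = 0.9999), and 371 had an unadjusted p under 0.05, or 2.23% of those tested. If no transcript differed, about 832 would have such a p on average. After quantile normalization 0 were called and 423 had such a p. Leaving out control population 1 turned the 371 into 971, leaving out control population 3 gave 1533, and leaving out selection population 3 gave 221. Dropping just the abdomen array of control population 3 that correlated least gave 945. Calls stayed at 0 in these 4 fits. As deposited, the population medians of the difference over all transcripts averaged -0.272 ± 0.0365 (SD, n = 6). They were below 0 in 6 of 6 (two-sided exact sign-flip p = 0.03125, the smallest that 6 populations allow). Selection minus control of that median was -0.00382 (two-sided exact permutation p = 1, where 0.1 is the smallest possible). Both tests used the deposited values, and the scaling sets this shift. The median difference over all transcripts was -0.036 after quantile normalization and 0.20 after median centring.

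The smallest p values belonged to transcripts that did not pass the adjustment. FBtr0083838 had a head minus abdomen difference of 0.30, 0.43 and 0.69 in control populations 1 to 3 and of 1.13, 1.25 and 1.41 in selection populations 1 to 3. FBtr0087720 was at 0.37 ± 0.414 in control and 1.47 ± 0.377 in selection populations (SD, n = 3). FBtr0079490 was at -0.39 ± 0.0836 in control and -1.10 ± 0.144 in selection populations (SD, n = 3). These are values and no calls, with adjusted p of 0.9999 from limma. Among the 16 genes, the widest gap between regime means was that of LanA, -0.49 in control and -0.95 in selection populations (adjusted p = 0.9999, limma).

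The tissue difference of old flies was set against that of younger females of the same populations. Taken on each day alone, 4149 transcripts (24.9%) were called on day 1, 6078 (36.5%) on day 5, 6277 (37.7%) on day 15 and 6280 (37.7%) on day 30, against 6008 on day 50. The median absolute difference was 0.471 on day 1, between 0.642 and 0.674 on days 5 to 30, and 0.635 on day 50. Of the calls of day 50, 5357 were called in the same direction on day 5, which is 89.2% of the day-50 and 88.1% of the day-5 calls. With day 1 the shared calls were 2914, 48.5% of the day-50 and 70.2% of the day-1 calls, and 60 went in opposite directions. The days have separate arrays. The 12 transcripts leading in the head on day 50 differed by at least 16-fold on every other day except FBtr0080474 on day 1, at 1.85. Of the 12 lowest, FBtr0087854 (-1.61) and FBtr0072630 (-3.97) were under 16-fold on day 1.

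Between day 5 and day 50 the tissue difference was called changed in 0 of 16637 transcripts, 0% (limma, smallest adjusted p = 0.0885), and 2186 had an unadjusted p under 0.05. About 832 would have such a p on average if no transcript changed. The count of 0 calls rested on how limma's variance was smoothed. The fit as planned let the variance follow the mean of the differences. With no trend 246 were called, and with the variance following the mean level, an alternative added later, 291 were called, 138 with a higher and 153 with a lower head minus abdomen difference on day 50. Under that added setting 45 were called against day 15 and 7 against day 30, where the planned setting called 0 in both.

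The transcripts of smallest p had the same sign of change in all 6 populations, which picking them by that p favours. FBtr0073880 was at 8.01 in the head on day 5 and at 9.69 on day 50, while the abdomen was at 8.25 and 8.43. Its tissue difference was -0.24 on day 5 and 1.26 on day 50, and the populations differed between the days by 1.24 to 1.82. FBtr0073883 had heads at 8.08 and 9.97 and abdomens at 8.12 and 8.42. FBtr0084827 had tissue differences of -0.66 and 1.03. In the other direction, FBtr0076452 had tissue differences of 3.04 and 1.80, with heads at 11.72 and 10.35. FBtr0085712 had 1.95 and 0.79, with heads at 10.26 and 9.01, and FBtr0078471 had 0.49 and -0.45. Their adjusted p was 0.0885 as planned and between 0.000116 and 0.0169 with the trend on the mean level, both from limma.

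Against day 1 the tissue difference was called changed in 7209 transcripts, 43.3% (limma, adjusted p under 0.05), with 3459 higher and 3750 lower on day 50. Of these, 4827 (67.0%) had a larger absolute difference between the tissues on day 50 than on day 1. The abdomen had changed more than the head in 5491 (76.2%) and the head more in 1718 (23.8%). These shares are among the 7209 called, and no share over all transcripts stands beside them. Some day-1 arrays stood apart from their label. Both day-1 heads of control population 3 had a median correlation of 0.923 with the other day-1 heads and of 0.985 or 0.986 with day-50 heads. The 2 day-1 abdomens of control population 1 correlated with day-5 abdomens at 0.932 and 0.946, where the other 10 were between 0.871 and 0.906, and its 2 day-1 heads at 0.968 and 0.970 with day-5 heads. A further day-1 head, selection population 3 replicate 1, was at 0.919 with day-1 heads and at 0.878 with day-5 heads. Without control populations 1 and 3, 7284 transcripts were called, 43.8%. The split between abdomen and head was not repeated without these populations.

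**Figure D3:**
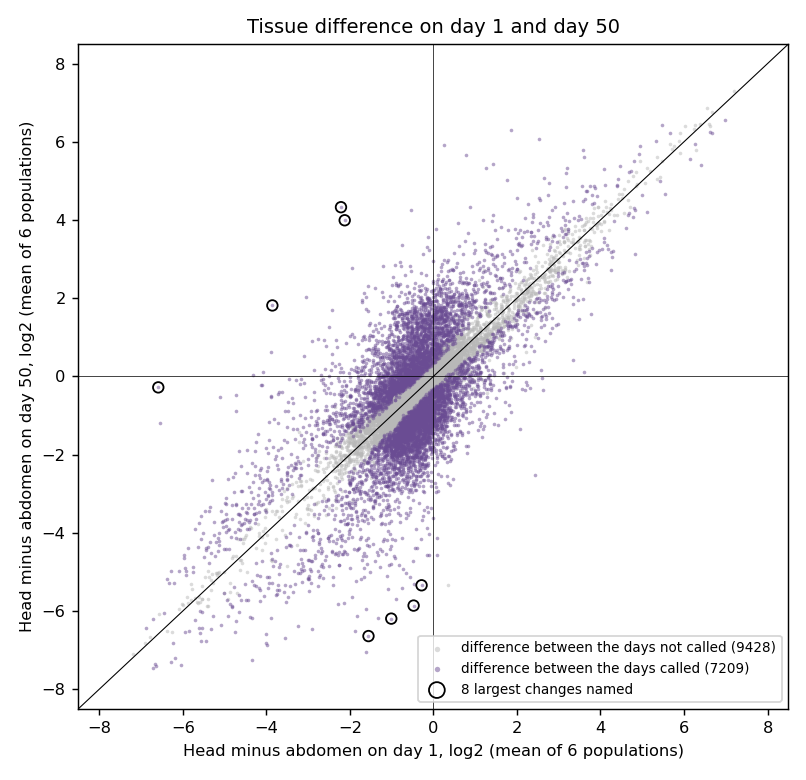
Each point is 1 transcript, with its mean head minus abdomen difference (log2, 6 populations) on day 1 on the horizontal and on day 50 on the vertical axis, and the diagonal marks equal differences. Purple points are the 7209 whose difference was called changed, and circles mark the 8 named ones.

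The 4 transcripts with the largest upward change had been high in the day-1 abdomen and were low there later. FBtr0080350 read 14.40 ± 0.546 in abdomens on day 1 and 7.94 ± 0.102 on day 50 (SD, n = 6), while heads were at 7.82 and 7.66. Its tissue difference went from -6.59 to -0.28, a change of 6.31 ± 0.556 (SD, n = 6; adjusted p = 0.0122, limma). It was still at -1.76 on day 5. FBtr0073651 went in the abdomen from 13.91 to 8.16 and its tissue difference went from -3.86 to 1.81.

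FBtr0078025 and FBtr0089324 changed in both tissues on average, though the heads did not all move alike. In control population 3 the head of FBtr0078025 went from 13.63 to 12.86 and that of FBtr0089324 from 13.52 to 9.46. In every other population both transcripts rose in the head. FBtr0078025 went from 13.54 to 9.06 in the abdomen and from 11.33 to 13.39 in the head, so its tissue difference turned from -2.21 to 4.33, a change of 6.54. FBtr0089324 turned from -2.12 to 3.99, a change of 6.12 that ranged from 0.27 in control population 3 to 8.71 in selection population 2. Without control populations 1 and 3 the changes of these 2 were 7.45 and 7.99 (n = 4).

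The 4 largest downward changes came from the abdomen, while the heads stayed between 7.93 and 8.34 on average on both days. FBtr0076572 went from 8.41 ± 0.091 to 13.82 ± 0.654 in the abdomen, and its tissue difference from -0.47 to -5.86 (adjusted p = 0.0259, limma, n = 6). FBtr0081241 went from 8.53 to 13.69 in the abdomen. FBtr0079239 went from 9.25 to 14.30 and FBtr0080521 from 9.59 to 14.71. In the last 2 the abdomen of control population 1 was already high on day 1, at 13.90 and 14.23, where the other populations were at 8.16 to 8.47 and at 8.44 to 9.03. Without control populations 1 and 3 their tissue differences changed by -6.10 and -5.96, compared with -5.19 and -5.09 in all 6. The adjusted p values of the 8 from limma were 0.0043 to 0.0259. Leaving out selection population 3 put all 8 above 0.05, at 0.0587 to 0.119, and leaving out selection population 1 did so for 6. The upward changes were then 5.71 to 6.54 and the downward ones -5.31 to -4.86. Without selection population 2, 2 of the 8 were above 0.05, at 0.0561 and 0.104 (limma). Without control population 2, FBtr0076572 was at 0.0506, and biological replicate 1 alone put FBtr0078025 at 0.0714 (limma). With all 6 populations and the variance following the mean level, the adjusted p values of the 8 from limma were at most 0.000298.

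**Figure D4:**
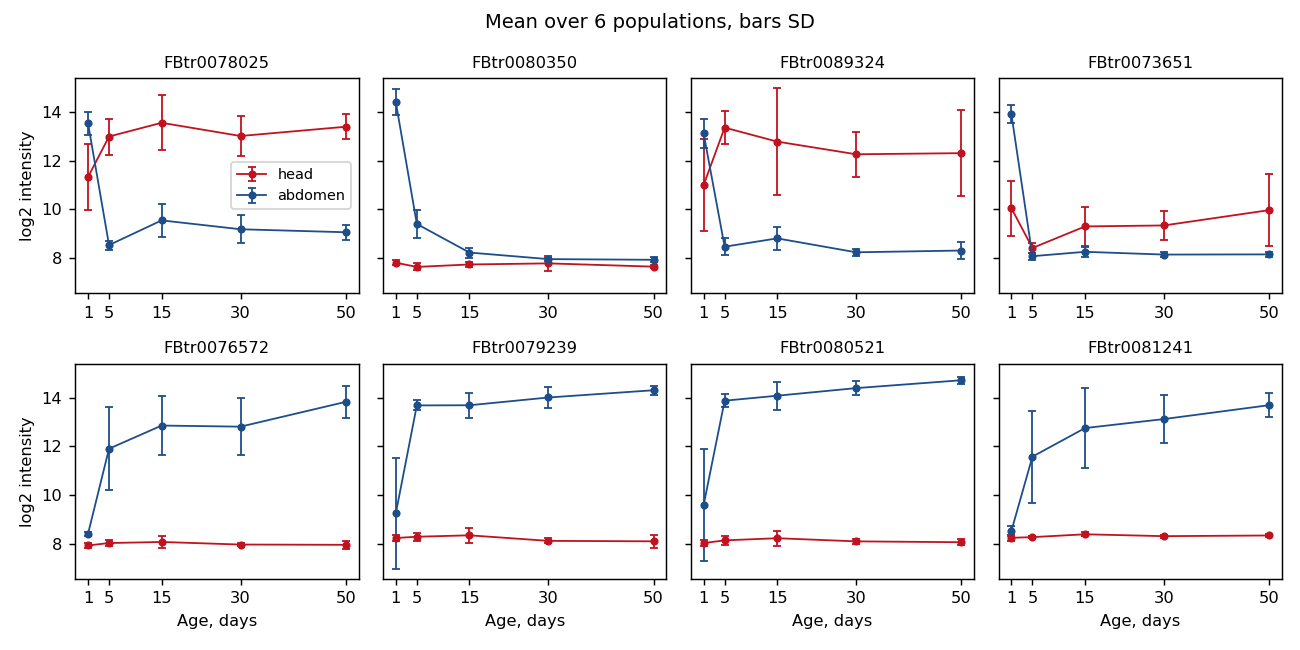
Mean log2 intensity of head (red) and abdomen (blue) by age in days for the 8 transcripts with the largest change of the tissue difference between day 1 and day 50, with SD over 6 populations as bars. In the 4 upper panels the abdomen is high on day 1, and in the 4 lower ones it is low on day 1 and between 13.69 and 14.71 on day 50.

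Of the 16 genes, 8 (50%) had a changed tissue difference between day 1 and day 50, 3 upward and 5 downward, beside the background of 43.3%. In fend the abdomen went from 10.00 to 11.95 and the head from 10.86 to 10.76, so the difference turned from 0.86 to -1.19. In kis the abdomen went from 11.26 to 12.31 and the difference from 0.02 to -1.07. In rdx the difference went from -0.76 to -1.93, and in NaPi-III from 0.70 to -0.24. Upward went Fatp1, from -0.40 to 0.65, with the abdomen at 13.41 on day 1 and 12.14 on day 50, and LanA, from -1.48 to -0.72, with the abdomen at 13.70 and 12.44. The tissue difference of alpha-Spec went from 0.03 to 0.52 and that of Wdr24 from -0.77 to -1.29. The difference of sle was -2.63 on day 1 and -2.45 on day 50, and its change was not called (adjusted p = 0.603, limma). Between these days 11 of the 28 shared transcripts, 39.3%, were called as well. The transcript of lmgB and lmgA went from 0.15 to -1.43 with the abdomen at 8.72 on day 1 and 10.14 on day 50, while heads were at 8.87 and 8.71. None of the 44 was called between day 5 and day 50.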

How the data were processed

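The authors deposited log2 intensities that they made with RMA, per the submitters' processing notes, for 16637 transcripts on 120 single-dye NimbleGen arrays. RMA subtracts background, equalizes the distributions of arrays and combines the probes of a transcript. Not given in the sources used here are its version, which arrays entered it together, and the build and annotation of the probes. RNA was amplified before labelling, per the labels' protocols. Arrays carry no depth, and the precision of the tests rests on the 6 populations, 3 in each regime.

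Tissue and any batch that runs with it cannot be told apart. Replicates of a population were averaged after head control population 2 replicate 1 had been left out. Heads and abdomens were paired by population, which the labels give, in limma 3.58.1 under R 4.3.3 with eBayes and a variance trend. Benjamini-Hochberg adjustment ran over all 16637 transcripts. A tissue difference was called at an adjusted p under 0.05 and at least 2-fold. Differences between regimes and days were fitted to each population's head minus abdomen values and called on the adjusted p alone. The main fit did not use the biological replicate numbers to pair heads with abdomens. Over 5 populations the deviations of same-numbered arrays correlated at 0.532 in control population 3 and between -0.065 and 0.088 in the rest. The fits were tested on simulated data.

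The rule for named transcripts took up to 12 each way with the largest difference, called as deposited and after quantile normalization and alike in sign in 6 populations. For the day contrasts it took 4, or 3 by smallest p where none was called. It added every transcript that RefSeq ties to 1 gene symbol and, each way, the 2 called transcripts that varied most between populations. Of 20 gene lists, the chromatin and histone list alone had at least 3 tied members. The members, lists and tests were chosen with earlier results of these data known.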

Additional observations from a re-analysis of the deposited data

Results flagged for a closer look

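Among the 72 tissue differences checked over 6 populations, 2 held a population far from the other 5, where chance flags about 1 in 20 groups. The transcript of CG31917 and Tfb5, a subunit of the transcription and repair factor TFIIH, differed by -0.09 between head and abdomen in selection population 1 and by -1.02 to -0.73 in the others. The transcript of CG5116 and CG42488 differed by -0.37 in selection population 2 and by -0.99 to -0.80 in the others.

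The tissue difference of day 50 was tested against that of day 1 and was called changed in 7209 transcripts (limma). The named changes of the head minus abdomen difference were 6.54 for FBtr0078025, 6.31 for FBtr0080350, 6.12 for FBtr0089324, 5.67 for FBtr0073651, -5.39 for FBtr0076572, -5.19 for FBtr0079239, -5.09 for FBtr0080521 and -5.06 for FBtr0081241.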

How the results depend on the processing

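The 6008 calls became 5010 after quantile normalization, 5311 after median centring, 6006 with the left-out head kept, 2108 at 4-fold or more and 13269 with no fold minimum. Those lower in the head numbered 2388 after quantile normalization and 2440 after median centring. The median difference was then -0.036 and 0.20. With transcripts of above-median mean level alone, 8318 were tested and 4028 were called, 985 higher and 3043 lower in the head. Under this restriction 2906 were called after quantile normalization, and 4699 changed against day 1. Fewer transcripts were tested here, so these counts cannot be set directly against those over all transcripts. Biological replicate 1 alone, which drops control population 2, gave 4799 against day 1. The day-5 contrast had 0 calls as planned, 246 without an intensity trend and 291 with the trend on the mean level, which was chosen after seeing the data. An unpaired fit called 6006, and arrays with population and biological replicate number as a replicate block called 5975. Population number as a replicate block left 0 calls between regimes. Leaving out 1 population in turn gave 5886 to 6085 tissue calls, 1916 to 1989 higher, 3926 to 4114 lower, 4921 to 5058 after quantile normalization, 6105 to 7698 against day 1, and 0 between regimes and against day 5. The cause was not tested.

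Signs near 0 turned under quantile normalization and median centring for NaPi-III (0.23 and 0.21), CG16974 (0.49 and 0.39), His4r (0.16 and 0.44), Gint3 with CG42306 (0.32 and 0.26) and CG44000 and CG44001 with CG33995 (0.21 and 0.14), and for CG31178 after median centring (0.21). Biological replicate 1 alone put His4r at 0.048, and replicate 2 alone put ND-MNLL at -0.0053 and Dpm2 with CG12016 at -0.0198. Without the abdomen of control population 3 that correlated least, chosen after seeing the data, His4r was at 0.0149 and Dpm2 at -0.0259. With each population left out in turn, His4r ran from -0.0469 to 0.0217, Dpm2 from -0.0377 to 0.18, ND-MNLL from -0.0244 to 0.11 and CG16974 from -0.123 to 0.0209. Over 86 named values and 12 alternatives, 947 results kept direction and side of the threshold, 57 lost the call and 7 gained it. Low signal limits CG31178.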
